A study of Mus musculus with 36 samples.

Results

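Neutrophil granule genes were followed in 3 tissues of mice given an amino acid mixture or water. The genes were S100a8, S100a9, Ltf, Ngp, Camp, Elane and Mpo, and their members were the probe sets whose platform gene symbol is exactly one of these names. Each gene had 1 such probe set, which gave 7 probe sets of the 45037 analysed, and 0 probe sets named one of them among several symbols. The probe set of S100a8 carries the suffix "_s_at", which marks probes shared by more than 1 transcript, so other transcripts may contribute to its value.

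The CAAM group held 5 male ddY mice, an outbred stock, that received CAAM, a mixture with the amino acid composition of casein, by gavage. The DW group held 7 male ddY mice that received water in the same way. All mice were freely feeding until the morning of the last administration, when food was removed before it was given, so they were without food at sampling. They were 5 weeks old at purchase with 1 further week of acclimation, received 5 administrations of 37.5 µL per g body weight, once a day, and were killed 4 h after the last one. CAAM was given at 1.8%. The study left out 2 further CAAM mice for abnormal liver morphology. RNA of the liver, the white adipose tissue (WAT) and the brown adipose tissue (BAT) of each of the 12 mice was measured on Affymetrix Mouse Genome 430 arrays, 36 in all, and arrays of a further mixture were not analysed here.

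Neutrophils are short-lived white blood cells that are made in the bone marrow and carry ready-made antimicrobial proteins in granules. The granules are filled in the order in which the cell matures. Elane (neutrophil elastase, a serine protease) and Mpo (myeloperoxidase, which makes hypochlorous acid) belong to the primary granules of the promyelocyte, and their messenger RNA is mostly lost before the cell enters the blood. Ltf (lactoferrin, which binds iron), Camp (the cathelicidin antimicrobial peptide) and Ngp (neutrophilic granule protein, a cathelin-like protein) belong to the secondary granules made at the next stages. S100a8 and S100a9 form calprotectin, a calcium- and zinc-binding dimer that lies mainly in the cytosol, and circulating neutrophils and monocytes keep much of their messenger RNA. Ltf is also made by secretory epithelia outside the blood. In a whole tissue, few neutrophils and little RNA per neutrophil cannot be told apart.

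The S100a8 and S100a9 genes lie close together on chromosome 3, at chr3:90669071-90670034 and chr3:90692630-90695721 of GRCm38.p6. Ltf (chr9:111019292-111042766), Ngp and Camp lie on chromosome 9, Elane on chromosome 10 and Mpo on chromosome 11. RefSeq promoters of GRCm38.p6 were matched for 7 of the 7 genes. The 250 bases before the start are shown 5′ to 3′ for the 3 genes that rank products called, S100a8 (chr3:90668821-90669070, + strand), S100a9 (chr3:90695722-90695971, - strand) and Ltf (chr9:111019042-111019291, + strand). Capitals mark matches to TATAAA (the TATA box), TTGCNNAA (the core of a C/EBP site, bound by factors that act in granulocyte genes) or GGTCA (the core bound by the oestrogen receptor), searched on both strands, and no match overlapped another.
S100a8: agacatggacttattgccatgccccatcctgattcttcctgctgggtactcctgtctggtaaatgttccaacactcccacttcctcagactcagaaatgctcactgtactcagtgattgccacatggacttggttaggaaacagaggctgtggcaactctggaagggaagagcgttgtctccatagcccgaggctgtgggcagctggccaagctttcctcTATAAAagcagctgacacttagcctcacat
S100a9: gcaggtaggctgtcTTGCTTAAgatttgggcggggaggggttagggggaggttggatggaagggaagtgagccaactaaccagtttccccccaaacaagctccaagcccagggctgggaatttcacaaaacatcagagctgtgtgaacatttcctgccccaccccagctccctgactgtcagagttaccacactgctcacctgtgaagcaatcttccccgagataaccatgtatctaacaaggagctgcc
Ltf: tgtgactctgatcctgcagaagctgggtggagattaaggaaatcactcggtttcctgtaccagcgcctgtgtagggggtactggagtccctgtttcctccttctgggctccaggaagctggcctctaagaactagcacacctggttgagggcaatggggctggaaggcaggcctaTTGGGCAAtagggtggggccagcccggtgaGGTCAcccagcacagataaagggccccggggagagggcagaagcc
TATAAA was found in 1 of the 7 promoters (S100a8) and in 12.4% of 32851 promoters of this length. TTGCNNAA was found in 3 of 7 (S100a9, Ltf and Ngp) and in 9.56% of all. GGTCA was found in 2 of 7 (Ltf and Mpo) and in 35.2% of all. These matches describe the letters and do not show that a factor binds.

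The deposited values were distribution free weighted (DFW) scores. A score has a level on a log2-like scale, but differences between arrays of a tissue are shrunk by a factor that belongs to the probe set. Differences of scores are therefore given as such, never as folds, and are read against the SD between mice. Over all probe sets the median of this SD was 1.08e-05 (liver), 1.42e-05 (WAT) and 7.38e-06 (BAT). Alb, the main secreted protein of hepatocytes, scored 15.0 in liver, Lep, the hormone of white adipocytes, 11.3 in WAT, and Ucp1, which uncouples respiration in brown fat, 14.2 in BAT, while outside their own tissues the 3 genes scored 6.27 to 7.34. Several arrays stood apart. In WAT, CAAM mice 6 and 7 scored high for Spint4 and Serpina1f, genes of the epididymis, whereas for Gpx5 and Lcn8, also of the epididymis, all 7 DW mice scored above the 5 CAAM mice, with DW mice 1 and 2 on top. In BAT, CAAM mouse 2 and DW mice 1 and 3 had the highest skeletal muscle scores, and the next was DW mouse 7. The calls of the granule genes and of the gene lists are also given without the 4 WAT arrays (CAAM mice 6 and 7, DW mice 1 and 2) and the 4 BAT arrays (CAAM mouse 2, DW mice 1, 3 and 7).

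Each gene is described across the 3 tissues by its own probe set. S100a8 scored 6.671 ± 0.00937 in liver, 7.791 ± 0.00661 in WAT and 6.435 ± 0.000768 in BAT (SD, n = 12 mice). In WAT this lay above 71.2% of probe sets, in liver above 43.0% and in BAT above 30.7%. S100a9 scored 6.670 ± 0.00414 in liver, 6.509 ± 0.00210 in WAT and 6.387 ± 0.00168 in BAT. S100a9 lay above 43.0% of probe sets in liver, 31.5% in WAT and 27.8% in BAT, and above the array median on 0 of 12 arrays in each tissue. Thus S100a8 had its highest score in WAT, whereas S100a9, the other subunit of the same dimer, had its highest score in liver, among low scores. Ltf scored 6.49998 in liver, 6.717 in WAT and 6.273 in BAT. Among the other secondary granule genes, Ngp scored 7.111 in liver, 6.932 in WAT and 6.997 in BAT, and Camp 6.561 in liver, 6.908 in WAT and 6.594 in BAT. The primary granule gene Elane scored 7.149 in liver, 6.970 in WAT and 7.123 in BAT, and Mpo 6.646 in liver, 6.431 in WAT and 6.680 in BAT. Ngp and Elane lay above the median of the array on 12 of 12 arrays in each tissue. Of the 21 mean scores of a gene in a tissue, 19 lay within the 6.27 to 7.34 of Alb, Lep and Ucp1 outside their own tissues. The exceptions were S100a8 in WAT, above this range, and Ltf in BAT, just below it. Scores of different probe sets cannot be ranked against each other, since each depends on its own probes, and no score shows by itself whether a gene was expressed.

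**Figure D1:**
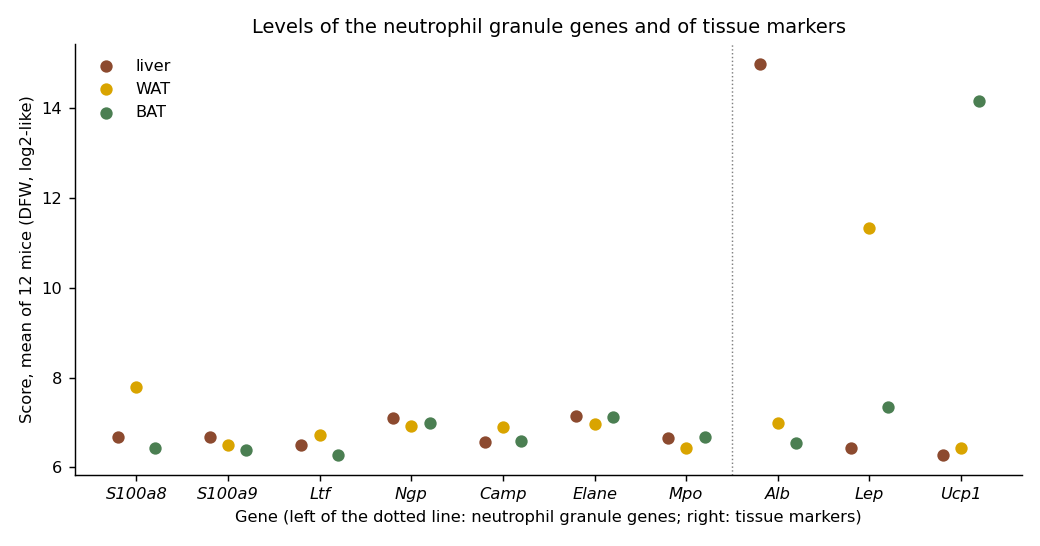
Mean score over the 12 mice (y axis, DFW score on a log2-like scale) of the 7 neutrophil granule genes and of Alb, Lep and Ucp1, with liver in brown, WAT in yellow and BAT in green. S100a8 is highest in WAT at 7.791, and the 3 markers are highest in their own tissues.

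The order of the tissues was the same in each mouse. For 7 of the 7 genes the arrays of any 2 tissues did not overlap. The same held for 99.6% of all probe sets in liver and WAT, 99.9% in liver and BAT and 99.5% in BAT and WAT, so it is no trait of these genes. The test by limma on differences within mice called 7 of 7 genes in liver minus WAT, in liver minus BAT and in BAT minus WAT. However, the same test called 99.8% of all probe sets in liver minus WAT, 100% to 3 digits (45015 of 45037) in liver minus BAT and 99.8% in BAT minus WAT, so nothing about the granule genes can be read from being called. Whether the tissues were quantified together or separately is not given in the sources used here, so the tissue and a separate run of the method cannot be told apart. S100a8 in liver minus WAT was -1.12, larger in size than for 89.7% of probe sets, and in BAT minus WAT it was -1.36, larger than for 96.7%. Ltf in BAT minus WAT was -0.44, larger than for 74.3%. The remaining differences lay at or below the 62.5 percentile of size, and in liver minus BAT Camp was at 8.75, Elane at 6.68 and Mpo at 8.92. This is a description of the scores, with no test.

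Between mice, S100a8 and S100a9 were among the most variable probe sets in each tissue, and the other genes were not, apart from Ltf in WAT. The SD of S100a8 lay at the 99.5 percentile of all probe sets (liver), the 97.7 percentile (WAT) and the 97.2 percentile (BAT). That of S100a9 lay at the 99.1 percentile (liver), the 95.7 percentile (WAT) and the 98.3 percentile (BAT). Ltf was among the most variable probe sets in WAT, where its SD exceeded that of 99.7%, but not in liver (48.1%) or BAT (49.7%). Ngp, Camp, Elane and Mpo had SDs between the 11.8 and the 86.5 percentile in the 3 tissues, and the difference between their highest and lowest mouse was at most 0.000285.

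**Figure D2:**
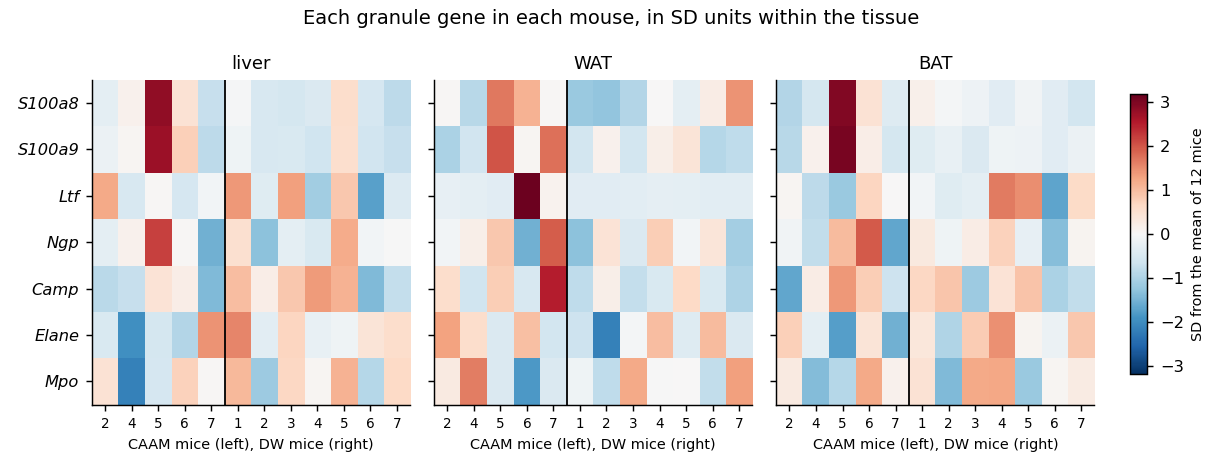
Score of each gene (rows) in each mouse (columns, CAAM mice left of the black line and DW mice right of it) in SD units from the mean of the 12 mice, for liver, WAT and BAT. CAAM mouse 5 is the highest for S100a8 and S100a9 in all 3 tissues, CAAM mouse 6 for Ltf in WAT and CAAM mouse 7 for Ngp and Camp in WAT.

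In liver, S100a8 and S100a9 were called higher in CAAM mice by rank products, the test of the study, and the highest score of both was that of 1 mouse. S100a8 scored 6.6678, 6.6721, 6.6973, 6.6751 and 6.6639 in livers of CAAM mice 2, 4, 5, 6 and 7. It scored 6.6703, 6.6660, 6.6656, 6.6664, 6.6761, 6.6658 and 6.6628 in livers of DW mice 1 to 7. CAAM mouse 5 stood above all other mice, 4 of 5 CAAM mice lay above the median DW mouse, and the groups overlapped. S100a9 scored 6.6695, 6.6706, 6.6817, 6.6735 and 6.6668 in livers of CAAM mice 2, 4, 5, 6 and 7, against 6.6697, 6.6682, 6.6683, 6.6676, 6.6725, 6.6678 and 6.6672 in livers of DW mice 1 to 7. The mice stood in almost the same order as for S100a8, again with CAAM mouse 5 on top. Groups of none of the 7 genes were apart in any tissue, where 0.442% of all probe sets had groups that did not overlap in liver, 0.222% in WAT and 0.329% in BAT.

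Rank products called 2 of the 7 genes higher in liver, S100a8 (estimated share of false positives 0.00124) and S100a9 (0.00447), and 0 lower, beside 1.63% of all probe sets called higher and 1.18% called lower. The split over all probe sets was 734 higher and 531 lower, but 432 higher and 630 lower after quantile normalization and 569 higher and 717 lower on the linear scale. Without CAAM mouse 5 rank products called only S100a8, beside 0.964% of all probe sets called higher and 1.17% called lower. The differences were then 0.00217 for S100a8 and 0.00134 for S100a9. limma called 0 of 45037 probe sets in liver (3047 had an unadjusted p under 0.05). Its difference was 0.00769 ± 0.00505 for S100a8 (CAAM minus DW, SE, adjusted p 0.818) and 0.00365 ± 0.00220 for S100a9 (adjusted p 0.795). Rank products ranks raw score differences, and 99.6% of the probe sets it called in liver lay among the 10% of probe sets with the highest SD between mice, which include S100a8 and S100a9 and none of the other 5 genes.

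**Figure D3:**
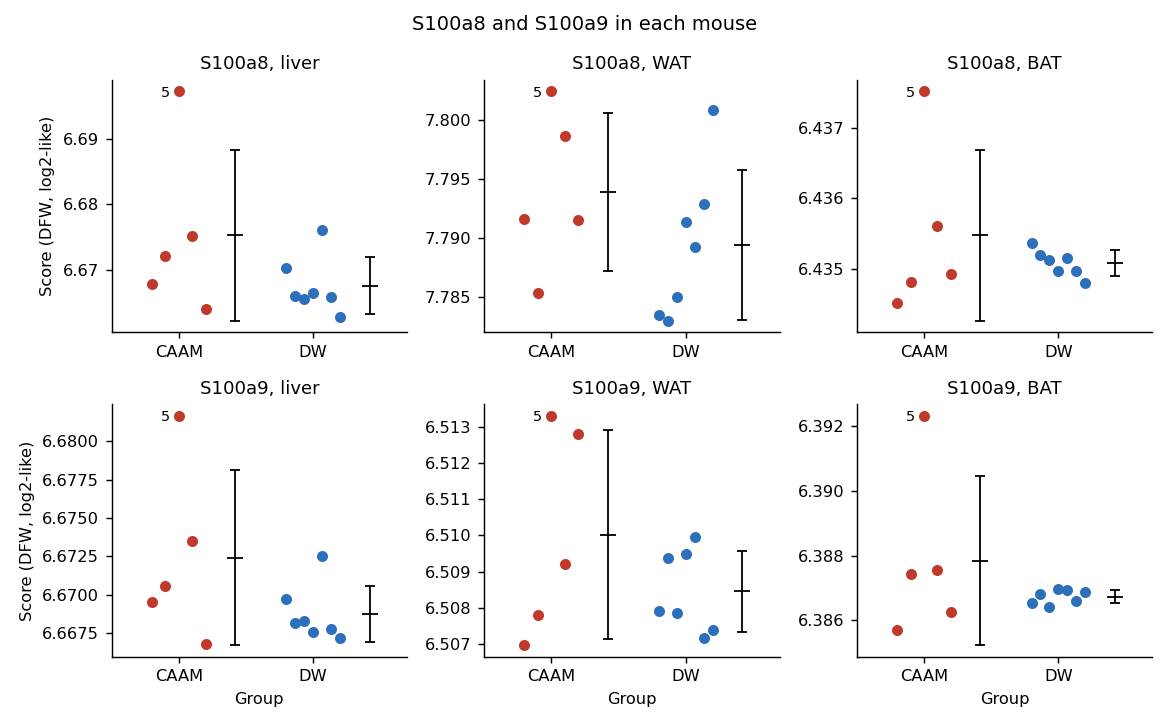
Scores (y axes, DFW score on a log2-like scale, a separate scale for each panel that does not start at 0) of S100a8 and S100a9 in liver, WAT and BAT. Points are single mice, CAAM in red left of DW in blue, bars are the mean ± SD, and CAAM mouse 5, marked 5, is the highest point of each panel.

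CAAM mouse 5 was also high in liver for several other lists of leukocyte genes, though not for all, and for the acute phase. Averaged in SD units over the genes of a list, its score was 2.55 for the NADPH oxidase of phagocytes (5 genes), 2.05 for acute phase proteins (15 genes), 1.94 for macrophages (14 genes), 1.82 for T and NK cells (11 genes) and 1.53 for other primary granule genes (6 genes), each the highest of the 12 mice. In contrast, a DW mouse was highest for B cells (0.64), for eosinophils and mast cells (0.44) and for factors of granulocyte formation (0.68). The highest CAAM scores for these lists were 0.50, 0.19 and 0.41. Lcn2 (lipocalin 2, an iron carrier of secondary granules that hepatocytes also make) scored 7.80 in the liver of CAAM mouse 5, 7.55, 7.37, 7.59 and 7.45 in CAAM mice 2, 4, 6 and 7, and 7.38 to 7.53 in DW mice. Saa2 (an acute phase protein of hepatocytes) scored 9.81 in it, 8.85 to 9.36 in the other CAAM mice and 8.85 to 9.09 in DW mice. Their part in the S100a8 and S100a9 values was not tested.

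The macrophage list moved with the group in liver. Rank products called 11 of its 14 genes higher in CAAM livers and 0 lower, and the same 11 genes without CAAM mouse 5. Its score ranged over -0.37 to 1.94 in CAAM mice and -1.37 to 0.47 in DW mice. Macrophages and monocytes can also hold calprotectin messenger RNA, and the part of these cells in the S100a8 and S100a9 values was not tested. For monocyte markers, 1 of 5 genes (Plac8) was called higher, and 0 without CAAM mouse 5.

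Of the other neutrophil genes in liver, those that passed rank products were higher in CAAM mice. Of 6 other primary granule genes, rank products called Lyz1 and Lyz2 (lysozymes, which macrophages also make) higher and 0 lower, and 5 of 6 had a higher mean in CAAM mice, against 44.5% of all probe sets. Of 15 other secondary and tertiary granule genes it called Lcn2 higher and 0 lower, and 10 of 15 had a higher mean. Of 5 NADPH oxidase genes it called Cyba and Cybb, the membrane subunits, higher, and 5 of 5 had a higher mean in CAAM mice. Of 17 surface and signalling genes it called 4 higher, Itgb2 (the β2 integrin), Fpr2 (a formyl peptide receptor), Il1b (the cytokine interleukin-1β) and Fcgr3 (an Fc receptor), and all 4 are shared with monocytes or macrophages. The neutrophil genes Csf3r (the receptor of the growth factor G-CSF), Cxcr2 (a chemokine receptor), Mmp8 (neutrophil collagenase) and Ctsg (cathepsin G), chosen here after their values were seen, had SDs in liver of 5.36e-06, 3.37e-05, 1.46e-05 and 8.51e-06 and were not called in any tissue. In liver CAAM mouse 5 ranked 1 of the 12 mice for Csf3r, 7 for Cxcr2, 4 for Mmp8 and 5 for Ctsg. Of further neutrophil genes, also named after their values were seen, it was highest for Prtn3, Chil3, Hdc and Stfa2l1. It ranked 2 for Cd177, 7 for Mmp9 and 12 for Stfa3. For Prtn3 and Chil3 the top 3 mice were CAAM mice 5 and 6 and DW mouse 5, as for S100a8 and S100a9. Of 7 chemoattractants 0 were called, but without CAAM mouse 5, and also without CAAM mouse 6, Cxcl1 (a neutrophil-attracting chemokine) was called lower. Cxcl1 scored 8.303, 8.303, 8.348, 8.309 and 8.309 in livers of CAAM mice 2, 4, 5, 6 and 7, and 8.303 to 8.312 in DW mice. CAAM mice 2 and 4 were the lowest and CAAM mouse 5 the highest, so these calls do not show that Cxcl1 was lower in CAAM livers. Of 8 factors of granulocyte formation Cebpd, a C/EBP factor that also acts in the acute phase, was called higher. It was called higher in BAT too, also without the 4 BAT arrays, and in WAT, but there not without CAAM mouse 5, without CAAM mouse 6 or without the 4 arrays. Without CAAM mouse 5, Cyba and Itgb2 were no longer called, while Lyz1, Lyz2, Lcn2, Cybb, Fpr2, Il1b, Fcgr3 and Cebpd were.

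In WAT, rank products called S100a8 and Ltf higher in CAAM mice. S100a8 scored 7.7916, 7.7854, 7.8025, 7.7986 and 7.7915 in WAT of CAAM mice 2, 4, 5, 6 and 7, against 7.7835, 7.7830, 7.7850, 7.7914, 7.7893, 7.7929 and 7.8008 in WAT of DW mice 1 to 7. The highest mice of both groups were close together, and DW mice 1 and 2 were the lowest. S100a9 scored 6.5070, 6.5078, 6.5133, 6.5092 and 6.5128 in the same CAAM mice and 6.5079, 6.5094, 6.5078, 6.5095, 6.5100, 6.5072 and 6.5074 in DW mice 1 to 7. CAAM mice 5 and 7 lay above all DW mice and CAAM mouse 2 below them.

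Ltf in WAT was set apart by 1 array. It scored 6.657, 6.645, 6.635, 7.419 and 6.744 in WAT of CAAM mice 2, 4, 5, 6 and 7, against 6.634, 6.635, 6.643, 6.655, 6.646, 6.644 and 6.644 in WAT of DW mice 1 to 7. CAAM mouse 6 was far above the rest, CAAM mouse 7 was second, and of the other 3 CAAM mice, 1 lay just above and 2 within the range of the DW mice. The same 2 mice were highest for Spint4 (a protease inhibitor of the epididymis), with 12.1 in CAAM mouse 6 and 8.22 in CAAM mouse 7, 6.38 to 6.45 in the other CAAM mice and 6.37 to 6.70 in DW mice. Serpina1f, a serpin of the epididymis, scored 11.2 and 7.52 in these 2 mice, 6.07 to 6.13 in the other CAAM mice and 5.99 to 6.11 in DW mice. In contrast, Gpx5 (an epididymal glutathione peroxidase) scored 6.63 to 6.96 in CAAM mice and 9.98 to 18.4 in DW mice, with DW mice 1 and 2 on top, so epididymal genes did not move together in one direction. The genes whose WAT scores were most like those of Ltf over the 12 mice, a choice made after its values were seen, were Myom2, Gldc, Cldn23, Atp2b3 and Defb11, with r from 0.997 to 0.999. For Ltf, CAAM mouse 6 lay 3.15 SD above the mean and the other mice at -0.37 to 0.12 SD, so these r rest mainly on 1 array. This mouse was the highest for 13.1% of all probe sets in WAT, and r without it was not computed.

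Rank products called 2 of the 7 genes higher in WAT, Ltf (estimated share of false positives 0.000313) and S100a8 (0.0257), and 0 lower, beside 0.828% of all probe sets called higher and 1.95% called lower. limma called 0 of 45037 probe sets (1784 had an unadjusted p under 0.05). Its difference was 0.177 ± 0.122 for Ltf, 0.00450 ± 0.00371 for S100a8 and 0.00157 ± 0.00116 for S100a9 (CAAM minus DW, SE, adjusted p 0.9999 each). Without CAAM mouse 6 the difference of Ltf was 0.0275 and rank products still called it, but not S100a8, beside 0.349% of all probe sets called higher and 2.04% called lower. S100a8 was also lost without DW mouse 1, DW mouse 2 or CAAM mouse 2, 5 or 7. The 4 arrays that stood apart in epididymal genes were CAAM mice 6 and 7 (highest for Spint4 and Serpina1f) and DW mice 1 and 2 (highest for Gpx5). Without them rank products called 0 of the 7 genes, beside 0.0977% of all probe sets called higher and 1.15% called lower, against 0.828% and 1.95% with all arrays. At such shares 0 of 7 is near the background. For Ltf these 4 arrays are those of the 2 highest and the 2 lowest of the 12 mice. DW mice 1 and 2 are also the lowest for S100a8. Leaving these arrays out shrinks both differences whatever their source, so nothing about epididymal RNA is read from the lost calls.

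**Figure D4:**
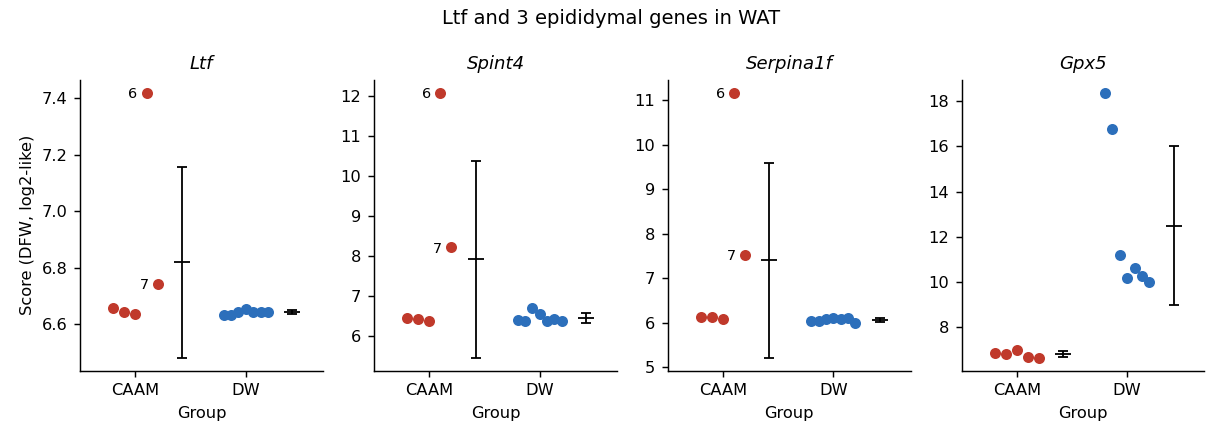
Scores (y axes, DFW score on a log2-like scale, a separate scale for each panel that does not start at 0) of Ltf and of Spint4, Serpina1f and Gpx5, 3 genes of the epididymis, in WAT. Points are single mice, CAAM in red left of DW in blue, and bars are the mean ± SD. CAAM mice 6 and 7, marked by number, are highest for Ltf, Spint4 and Serpina1f, while all DW mice are above all CAAM mice for Gpx5.

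The epididymis lies next to the fat pad of that name in male mice. Of 20 epididymis genes in WAT, rank products called 6 higher and 11 lower in CAAM mice, 2 of them in both directions (1 higher and 11 lower without the 4 arrays), and the list scored -0.59 to 0.78 in CAAM mice and -0.36 to 0.997 in DW mice. Of 8 mesothelium genes, the surface layer of such organs, it called 8 lower and 2 of these also higher (8 lower and 0 higher without the 4 arrays), with list scores of -1.11 to -0.14 in CAAM mice and -0.40 to 0.90 in DW mice. The part of such RNA in the Ltf scores was not tested. Some T and NK cell markers were also higher in CAAM WAT. Rank products called 4 of 11 higher and 0 lower, beside 0.828% of all probe sets called higher. A higher mean in CAAM mice was found for 10 of 11, against 51.1% of all probe sets. The list scored -0.68 to 1.99 in CAAM mice and -0.85 to 0.27 in DW mice. Of 7 proliferation genes it called 2 higher and 6 had a higher mean, with list scores of -0.77 to 1.68 in CAAM mice and -1.07 to 0.21 in DW mice. Without CAAM mouse 5, 1 of the 11 (Gzma) and 1 of the 7 (Mki67) were called higher, and without CAAM mouse 6, 5 of 11 and 1 of 7. Without the 4 arrays 0 genes of both lists were called, and their part in the S100a8 and Ltf scores was not tested. Apart from Cebpd, the other neutrophil genes that passed rank products in WAT were called lower or in both directions. Lcn2 was called lower and Slpi (a leukocyte protease inhibitor that epithelia also make) was called lower, while Prtn3 (proteinase 3, of primary granules) was called in both directions, Serpinb1a (an inhibitor of elastase) lower and S100a6, another S100 protein, lower. Without the 4 arrays only Lcn2 and Slpi of these were called, both lower. Lcn2 scored 7.05, 6.72, 10.7, 9.13 and 9.34 in WAT of CAAM mice 2, 4, 5, 6 and 7, against 12.84, 11.99, 8.18, 9.53, 8.90, 7.62 and 9.59 in WAT of DW mice 1 to 7. Its order over the mice was not that of Ltf, which is packed into the same granules. Of 17 surface and signalling genes 0 were called in WAT, although 15 had a higher mean in CAAM mice, against 51.1% of all probe sets. Of 5 NADPH oxidase genes 0 were called.

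In BAT, rank products called 0 of the 7 genes, beside 1.19% of all probe sets called higher and 2.05% called lower. S100a9 scored 6.3857, 6.3874, 6.3923, 6.3875 and 6.3862 in BAT of CAAM mice 2, 4, 5, 6 and 7, against 6.3865, 6.3868, 6.3864, 6.3870, 6.3869, 6.3866 and 6.3869 in BAT of DW mice 1 to 7. CAAM mouse 5 stood far above, and CAAM mice 2 and 7 lay below all DW mice. S100a8 scored 6.4345, 6.4348, 6.4375, 6.4356 and 6.4349 in the CAAM mice, against 6.4354, 6.4352, 6.4351, 6.4350, 6.4352, 6.4350 and 6.4348 in DW mice 1 to 7, with CAAM mouse 5 again on top. The limma difference was 0.00111 ± 0.000944 for S100a9 (adjusted p 0.916) and 0.000392 ± 0.000442 for S100a8 (adjusted p 0.949), and limma called 0 of 45037 probe sets (2886 had an unadjusted p under 0.05). Without CAAM mouse 5 both differences were below 0, at -7.41e-06 for S100a9 and -0.000119 for S100a8. S100a9 passed rank products without CAAM mouse 2, without CAAM mouse 7, and without the 4 arrays highest in muscle genes (CAAM mouse 2, DW mice 1, 3 and 7). Of 45037 probe sets these runs called 520 higher and 1105 lower, 274 higher and 873 lower, and 422 higher and 379 lower. Skeletal muscle genes were called lower in CAAM BAT for 10 of 11, also without the 4 arrays, with list scores of -0.84 to 1.37 in CAAM mice and -0.51 to 1.72 in DW mice, and their part was not tested.

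In BAT, the highest list scores for the NADPH oxidase and for macrophages were those of a DW mouse. CAAM mouse 5 scored 0.93 for the NADPH oxidase list and 0.50 for the macrophage list, the second highest of the 12 mice in both, against 2.09 and 1.42 in DW mouse 6. For Il1b, Lcn2, Csf3r and Mmp8, CAAM mouse 5 was the highest in BAT. Other neutrophil genes did not share this, since it ranked 8 of the 12 mice for Fpr2, 10 for Cxcr2 and 11 for Cd177. All these genes were named after their values were seen. Rank products called Lyz1, Lyz2, Hp, Anxa1, S100a6, Cyba, Cybb, Itgb2, Clec4d and Fcgr3 lower in CAAM BAT, and of the lists of neutrophil genes only Cebpd higher. Without the 4 arrays highest in muscle genes only Lyz2, Anxa1, Cyba and Clec4d of these were called lower, Lyz1, Hp, S100a6, Cybb and Itgb2 were not called, and Fcgr3 was called higher. Of 17 surface and signalling genes 1 had a higher mean in CAAM BAT, and of 5 NADPH oxidase genes 0, against 49.2% of all probe sets. In this tissue the S100a8 and S100a9 scores of DW mouse 6 lay within the range of the other DW mice.

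Ngp, Camp, Elane and Mpo were not called by either test in any tissue. Ngp in liver scored 7.11072, 7.11075, 7.11089, 7.11075 and 7.11064 in CAAM mice 2, 4, 5, 6 and 7, and 7.11066 to 7.11082 in DW mice, with CAAM mouse 5 highest as for calprotectin. Its limma difference was 1.13e-05 (CAAM minus DW, adjusted p 0.984). Camp in WAT scored 6.90779, 6.90770, 6.90781, 6.90771 and 6.90795 in CAAM mice 2, 4, 5, 6 and 7 and 6.90767 to 6.90780 in DW mice. Its difference of 7.54e-05 ± 4.29e-05 was 1.005 times the SD within groups, the largest ratio among the 21 comparisons of a gene in a tissue (adjusted p 0.9999). In liver Camp had 0 of 5 CAAM mice above the median DW mouse, with a difference of -1.30e-05 (adjusted p 0.823), and in BAT its difference was 1.29e-07. Elane differed by -4.18e-06 (liver), 2.03e-06 (WAT) and -7.20e-06 (BAT), and Mpo by -5.66e-06, -1.90e-06 and -1.13e-06 in the same tissues, with adjusted p of 0.813 or more for both genes in limma. Ltf outside WAT differed by 3.11e-07 in liver and -3.27e-06 in BAT. The array medians of a tissue spanned 0.000345 in liver, 0.00596 in WAT and 0.00143 in BAT, which is more than the range of each of these genes over the 12 mice.

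Over the 7 genes, 4 had a higher mean in CAAM livers, 6 in CAAM WAT and 4 in CAAM BAT, against 44.5%, 51.1% and 49.2% of all probe sets. In units of the SD within groups, their median difference was 0.03 (liver), 0.69 (WAT) and 0.02 (BAT), against -0.09, 0.01 and -0.01 over all probe sets. These counts describe the genes and were not tested. Whether the CAAM difference itself differed between tissues was tested with limma on differences within mice, which called 0 of 45037 probe sets for liver minus WAT, liver minus BAT and BAT minus WAT (0% each, 2425, 2787 and 2507 with an unadjusted p under 0.05). Among the 7 genes the lowest adjusted p was 0.833. The calls of rank products in one tissue and not in another are therefore not shown to differ.

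The relations between genes were computed over the 12 mice for 4 pairs in each tissue and for each gene between tissues, 33 relations in all. S100a8 and S100a9 varied together in liver (r = 0.991, permutation p 1e-05, the smallest that the resampling can give, adjusted p 0.00033; rho = 0.92, adjusted p 0.0023). Without CAAM mouse 5 and DW mouse 5, the 2 mice farthest from the median, r was 0.961, and with group means subtracted it was 0.989. In WAT the pair had r = 0.324 (permutation p 0.304, adjusted p 0.456) and rho = -0.014 (adjusted p 1). In BAT it had r = 0.945 (permutation p 0.00419, adjusted p 0.0376), but rho was 0.45 (adjusted p 0.465) and r was 0.286 without CAAM mice 5 and 6 and 0.515 without CAAM mouse 5 alone, so the relation in BAT rests on these mice.

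**Figure D5:**
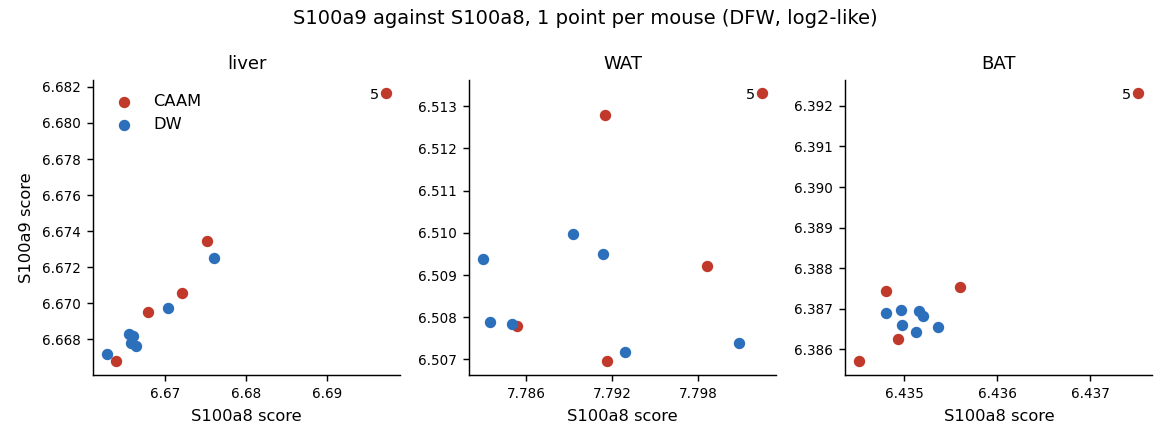
S100a9 score (y axis) against S100a8 score (x axis) in liver, WAT and BAT, 1 point per mouse, CAAM in red and DW in blue, with CAAM mouse 5 marked 5. In liver the 12 mice lie along a line (r = 0.991), in WAT they scatter (r = 0.324), and in BAT r = 0.945, or 0.515 without CAAM mouse 5.

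Between tissues, S100a8 in liver and BAT had r = 0.909 (permutation p 0.00554, adjusted p 0.0376) and rho = 0.55 (adjusted p 0.324), and S100a9 in liver and BAT had r = 0.898 (permutation p 0.0057, adjusted p 0.0376) and rho = 0.55 (adjusted p 0.324). Without the 2 farthest mice r was 0.498 for S100a8 and 0.235 for S100a9, and without CAAM mouse 5 alone 0.478 and 0.485. Ngp and Camp in WAT had r = 0.737 (permutation p 0.00548, adjusted p 0.0376) and rho = 0.73 (adjusted p 0.0945), with r = 0.535 without CAAM mice 6 and 7. The remaining 28 relations had adjusted p of 0.149 or more for r. Elane and Mpo, both of primary granules, had r = 0.543 in liver (adjusted p 0.213), 0.028 in WAT (adjusted p 0.985) and 0.636 in BAT (adjusted p 0.149). Ngp and Ltf, both of secondary granules, had r of 0.204, -0.404 and 0.357 in liver, WAT and BAT (adjusted p 0.676, 0.396 and 0.420).

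The genes most like the mean of the 7 granule genes in SD units were different in each tissue. By Pearson r over the 12 mice they were Pnrc2 (0.910), Letm1 (0.870), Igha (0.848), BC002059 (0.844) and Ttc39a (0.837) in liver, A530088E08Rik (0.899), Cgas (0.879), D630029K05Rik (0.879), Sik1 (0.870) and Gxylt1 (0.859) in WAT, and Muc2 (0.935), Bcas1os2 (0.930), H2bfm (0.922), Trpm2 (0.921) and Grm7 (0.917) in BAT. The genes with the highest lowest r over the 3 tissues were Tmc1 (0.625), Sla (0.615), Cgas (0.603), Adar (0.575) and Clec4e (0.545). They were the top of a search over all named probe sets and carry no test.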

How the data were processed

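RNA of 12 mice was hybridised to 1 array per tissue. The authors quantified the arrays by the DFW method in R 2.7.2 (the submitters' processing notes) and deposited the score of every probe set on every array. Of 45101 probe sets, 64 controls were left out. Gene symbols came from the platform's annotation, 1 for 34945 probe sets, several for 932 and none for 9160. The number of arrays limits the precision.

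Rank products (python 3.11.15, numpy 2.4.6) took all 35 pairs of arrays of a tissue, with values permuted within arrays 100 times (20 for alternatives) and a call below an estimated share of false positives of 0.05 for either direction. The second test was limma 3.58.1 (R 4.3.3; lmFit and eBayes, two-sided), which adjusted p by Benjamini-Hochberg over 45037 probe sets. Tissues were compared on differences within mice. No mouse is shared by CAAM and DW, so no block was used. Relations used 100000 permutations, two-sided. Both tests were run on simulated data with shifts larger, in SD units, than the CAAM differences of the granule genes. How well they find differences of that size was not tested.

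The granule genes and gene lists were chosen with earlier results of these data known. Where a list gene had several probe sets, the one with the highest mean was used. The text names, of each list, genes that were called, those of the 4 with the highest mean, and some chosen after their values were seen, where it says so. Alternatives were quantile normalization, centring, the linear scale, a filter on dim probe sets, differences divided by the SD, eBayes with trend and robust priors, 1 fit of all tissues, DW mice only and unpaired tissues, the mouse number as a block, and leaving out each mouse. Chosen after seeing the data were runs without 4 WAT or 4 BAT arrays and rank products with centred values permuted.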

Additional observations from a re-analysis of the deposited data

Results flagged for a closer look

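Of 42 groups checked (7 genes, 3 tissues and 2 groups of mice), 2 held a mouse far from the others of its group by Dixon's test, and chance alone gives about 1 in 20. In WAT of CAAM mice, Ltf scored 7.419 in mouse 6, and the gap to the next mouse, 6.744, was 0.862 of the range of the group. In BAT of CAAM mice, S100a9 scored 6.3923 in mouse 5, and the gap to the next mouse, 6.3875, was 0.722 of the range of the group. No gene had all CAAM mice on one side of the DW mean in one tissue and on the other side in another.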

How the results depend on the processing

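Rank products called 2 of the 7 genes in liver, but 1 on the linear scale, 0 with dim probe sets left out (the filter removes S100a8 and S100a9) and 0 with differences divided by the SD, and 1 to 2 when each mouse was left out. It called 2 in WAT, but 1 on the linear scale, 1 after quantile normalization, 1 with dim probe sets left out (the filter removes Ltf), 0 with differences divided by the SD, 0 without the 4 WAT arrays, and 1 to 2 when each mouse was left out. It called 0 in BAT, but 1 with centred values permuted, 1 without the 4 BAT arrays, and 0 to 1 when each mouse was left out. Centred values were permuted first. After that result was seen, values as deposited, the design as written, took their place. With centred values permuted, 71.1% of all calls were higher in liver, 53.3% in WAT and 53.4% in BAT, against 58.0%, 29.8% and 36.7% with values as deposited. Quantile normalization called 186 higher and 407 lower in WAT and 213 and 309 in BAT. Differences divided by the SD called 126 and 158 in liver, 70 and 74 in WAT, and 194 and 86 in BAT. Without the 4 arrays the counts were 44 and 516 in WAT and 422 and 379 in BAT. Between CAAM and DW, limma called 0 of the 7 genes under each alternative run, the replicate block included. Same-numbered mice of the 2 groups are different mice, their deviations correlated by -0.884 to 0.784, and the block changed no call. The tissue contrasts called 7, but 3, 2 and 3 for liver minus WAT, liver minus BAT and BAT minus WAT with dim probe sets left out, since the filter removes the other genes. Of 33 relations 5 passed, and 1 with group means subtracted or without the 2 farthest mice. The cause of these changes was not tested unless stated.

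Of the single differences under alternatives, 281 kept their sign and 34 changed it, and none of these genes was called by limma. After centring, Ltf was -0.000107 in liver and 0.000369 in BAT, Ngp -9.64e-05 in liver, Mpo 0.000315 in WAT and 0.000372 in BAT, and Elane 0.000365 in BAT. After quantile normalization, Ngp was -9.47e-05 and Camp 9.12e-06 in liver, Mpo 0.000176 in WAT, and Ltf 0.000133, Elane 0.000617 and Mpo 0.00028 in BAT. With the replicate block, Camp was -3.52e-07 and Mpo 3.75e-07 in BAT. When each mouse was left out, the range was -2.75e-06 to 2.72e-06 for Ltf and -2.26e-05 to 3.80e-05 for Ngp in liver, -4.92e-06 to 9.20e-07 for Mpo in WAT, and in BAT -0.000119 to 0.000631 for S100a8, -7.41e-06 to 0.00164 for S100a9, -4.64e-06 to 8.26e-06 for Ngp, -1.61e-06 to 2.26e-06 for Camp and -2.81e-06 to 4.54e-07 for Mpo. No probe set named a granule gene among several symbols, so that alternative gave no value.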

Other observations

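Receptors and relatives of the granule proteins were measured as well. Of 9 receptors of calprotectin or lactoferrin, rank products called Cd14 (the co-receptor of Tlr4) and Cd36 (a scavenger receptor) higher in CAAM livers and 0 lower, and 7 of 9 had a higher mean in CAAM livers, beside 1.63% of all probe sets called higher and 44.5% with a higher mean. In WAT it called Emb lower, and in BAT it called 0 of 9. Of 9 relatives of the granule genes, which include peroxidases, S100 proteins and cathepsin C, it called Ctsc (cathepsin C, which activates elastase) and Cst3 (cystatin C) higher in CAAM livers, where 6 of 9 had a higher mean, and 0 in WAT and BAT. limma called 0 of these genes in each tissue, and 3 of the 9 receptors and 1 of the 9 relatives had an unadjusted p under 0.05 in liver. Without CAAM mouse 5, of these genes only Cd14 was still called higher in liver.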
